A study of Mus musculus with 18 samples.

Results

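The mitochondrial protein import genes described here are the nuclear genes that encode subunits of the translocases of the outer and inner mitochondrial membranes, named Tomm and Timm in the mouse, together with the cytosolic co-chaperone Tomm34. They were chosen by symbol: every protein-coding gene whose GENCODE M21 symbol is Timm or Tomm followed by a number, with a mean of at least 10 read pairs over the 18 libraries. Of 25 such genes among the 55450 genes in the count table, 22 met that minimum, and all 22 passed the filter on low counts and were tested among 16270 genes. The rule used no difference between groups. The 3 genes under the minimum were Timm8a2, which was listed at 0 in every library, Tomm20l, with a mean of 3.72 read pairs, and Tomm6, with a mean of 1.28.

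RNA was sequenced from left ventricle of FVB/N mice that overexpress Gαq, a G protein subunit encoded by Gnaq, in the heart alone, and of their wild-type (WT) littermates. Each genotype was fed chow without drug, the control diet (CD), or chow with 0.5 mg per g of ertugliflozin (ERTU), an inhibitor of the kidney glucose transporter SGLT2, from 4 weeks of age for 16 weeks, so that all mice were 20 weeks old at the end. There were 9 WT libraries, 4 on CD and 5 on ERTU, and 9 Gαq libraries, 5 on CD and 4 on ERTU, each from 1 heart. The overexpression is cardiac-specific, whereas the RNA came from whole powdered ventricle, so that fewer cells of a type and less RNA per cell cannot be told apart here.

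Almost all mitochondrial proteins are made in the cytosol and have to be imported. The TOM complex is the entry gate of the outer membrane, small TIM chaperones escort hydrophobic proteins through the intermembrane space, the TIM22 complex inserts metabolite carriers into the inner membrane, and the TIM23 complex with its motor pulls proteins with a presequence into the matrix. The heart depends heavily on this route, because mitochondria fill much of a cardiomyocyte and supply nearly all of its ATP.

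Total counts ran from 15383566 to 20908363 read pairs per library. Gnaq was at 45.5 to 230 CPM (read counts relative to the TMM-scaled library size) in the 9 WT libraries and at 1641 to 11670 CPM in the 9 Gαq libraries, in the order the labels give. Among the latter, those on ERTU averaged 3216 CPM (SD 1371, n = 4), while the CD hearts averaged 7473 CPM (SD 3818, n = 5), with overlapping ranges (log2 change with ERTU -1.22, SE 0.517, 95% interval -2.30 to -0.13, edgeR adjusted p = 0.653). Comparisons that involve Gαq on 1 diet thus set hearts of unequal mean Gnaq level beside each other, and the part of that level in the results was not tested. The 10 cardiomyocyte markers summed to between 83130 and 122400 CPM in every library, and skeletal muscle markers to at most 4.69 CPM. Atrial markers varied widely within every group, from 5.56 to 906 CPM summed over 5 genes. The libraries with the highest sum in their group were Gαq ERTU 20, Gαq CD 8, WT ERTU 14 and WT CD 5, and counts of genes are also given without these 4. Libraries are named by group and by the number in the table.

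The import genes differed in level by about 2 orders of magnitude per length of exon. In WT CD, Timm8b, a small TIM chaperone, had the highest level, at 159 CPM per kb of exon, followed by the small TOM subunit Tomm5 at 93.5, the chaperone Timm10 at 68.8 and the small TOM subunit Tomm7 at 58.3 CPM per kb. Timm10b, the chaperone bound to the TIM22 complex, had the lowest, at 1.61 CPM per kb. Timm8b and Tomm5 ranked 1 and 2, and Tomm20, Timm9, Timm8a1 and Timm10b ranked 19 to 22, in all 4 groups. Tomm20, Timm8a1 and Timm10b share sequence with other genes, as described below, so that their levels are uncertain. Timm44 ranked 7 in WT CD and 5 in WT ERTU, but 8 in Gαq CD and 9 in Gαq ERTU. Libraries of a group scattered little around these means, with a median coefficient of variation of 9.40% over the members and groups and a range of 1.79% to 25.9%. Ranges of neighbours in the middle of the order overlapped, so that their ranks are not distinct.

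**Figure D1:**
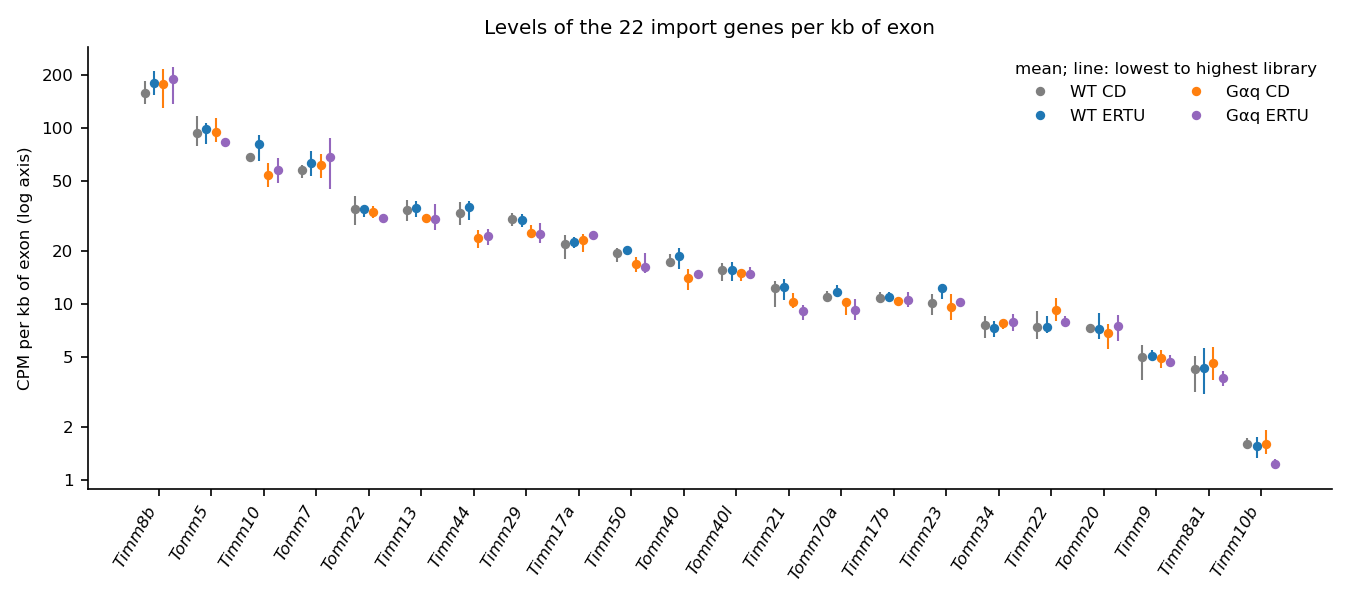
Level of each of the 22 import genes in CPM per kb of exon on a log axis, with 1 point per group for the mean and a line from the lowest to the highest library. The order from Timm8b, at 159 CPM per kb in WT CD, down to Timm10b, at 1.61, was much the same in the 4 groups, while Timm10 and Timm44 sat visibly lower in the Gαq groups.

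The first comparison asked how the import genes differed between Gαq and WT hearts over both diets. Of the 22 genes, 7 were lower in Gαq and 0 were higher (edgeR quasi-likelihood test, adjusted p under 0.05 over all genes tested), against 9.92% of all tested genes lower and 9.72% higher. With scaling to library totals, 6 members were lower and 1 was higher, and the calls over all genes were 1244 lower and 1988 higher, against 1614 and 1582. The lower genes were Timm44, Timm10, Timm21, Tomm40, Timm29, Timm50 and Tomm70a, which between them belong to the import motor, the TIM23 and TIM22 translocases, the small chaperones, the outer membrane channel and its receptors. The differences were modest, from 1.16-fold to 1.42-fold. The median log2 difference over the 22 genes was -0.11, with 17 below 0, against 0.0038 over all tested genes.

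Timm44 (ENSMUSG00000002949, GRCm38 chromosome 8, 4259731 to 4275913) is the inner membrane protein that tethers the matrix Hsp70 motor to the TIM23 channel. It stood at 140.3, 127, 114 and 103 CPM in WT CD and at 142, 139.6, 137, 123 and 110.1 CPM in WT ERTU. In Gαq CD it stood at 96.4, 95.0, 87.6, 82.7 and 77.0 CPM, and in Gαq ERTU at 97.9, 91.8, 88.3 and 79.7 CPM. Every one of the 9 Gαq libraries was below every one of the 9 WT libraries. This separation was seen in 1.83% of all tested genes and in no other Timm or Tomm gene. Of the 31 further import genes described below, 2 were separated in the same way, Hspa9 and Mipep. The level was 1.42-fold lower in Gαq (log2 difference -0.50, SE 0.073, edgeR adjusted p = 3.62e-05). Leaving out any single library, 18 fits in all, did not end the call.

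The other TIM23 genes lower in Gαq encode Timm21, which joins TIM23 to the TOM complex and to the respiratory chain, and Timm50, the receptor that takes presequences as they leave the outer membrane. Timm21 stood at 50.8, 49.9, 47.6 and 36.1 CPM in WT CD, at 51.9, 49.5, 48.5, 45.1 and 39.5 CPM in WT ERTU, at 43.0, 40.2, 37.4, 36.1 and 35.3 CPM in Gαq CD, and at 36.7, 36.1, 33.0 and 30.4 CPM in Gαq ERTU. The single low WT CD library, WT CD 5, lay within the Gαq CD range, and on ERTU the genotypes did not overlap. Timm21 was 1.29-fold lower in Gαq (log2 difference -0.36, SE 0.077, edgeR adjusted p = 0.00189).

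Timm50 (ENSMUSG00000003438, chromosome 7, 28305516 to 28312072) stood at 46.9 to 55.8 CPM in WT CD, at 51.9 to 57.3 CPM in WT ERTU, at 40.8 to 50.1 CPM in Gαq CD and at 52.3, 41.6, 41.5 and 40.6 CPM in Gαq ERTU. Gαq ERTU 16 was within the WT range and the other 3 libraries of its group lay close together below it. Timm50 was 1.20-fold lower in Gαq (log2 difference -0.26, SE 0.065, edgeR adjusted p = 0.00675). The channel genes of the same complex were not called: the log2 differences were -0.18 (SE 0.075, adjusted p = 0.106) for Timm23, 0.10 (SE 0.065, adjusted p = 0.302) for Timm17a and -0.06 (SE 0.055, adjusted p = 0.479) for Timm17b.

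**Figure D2:**
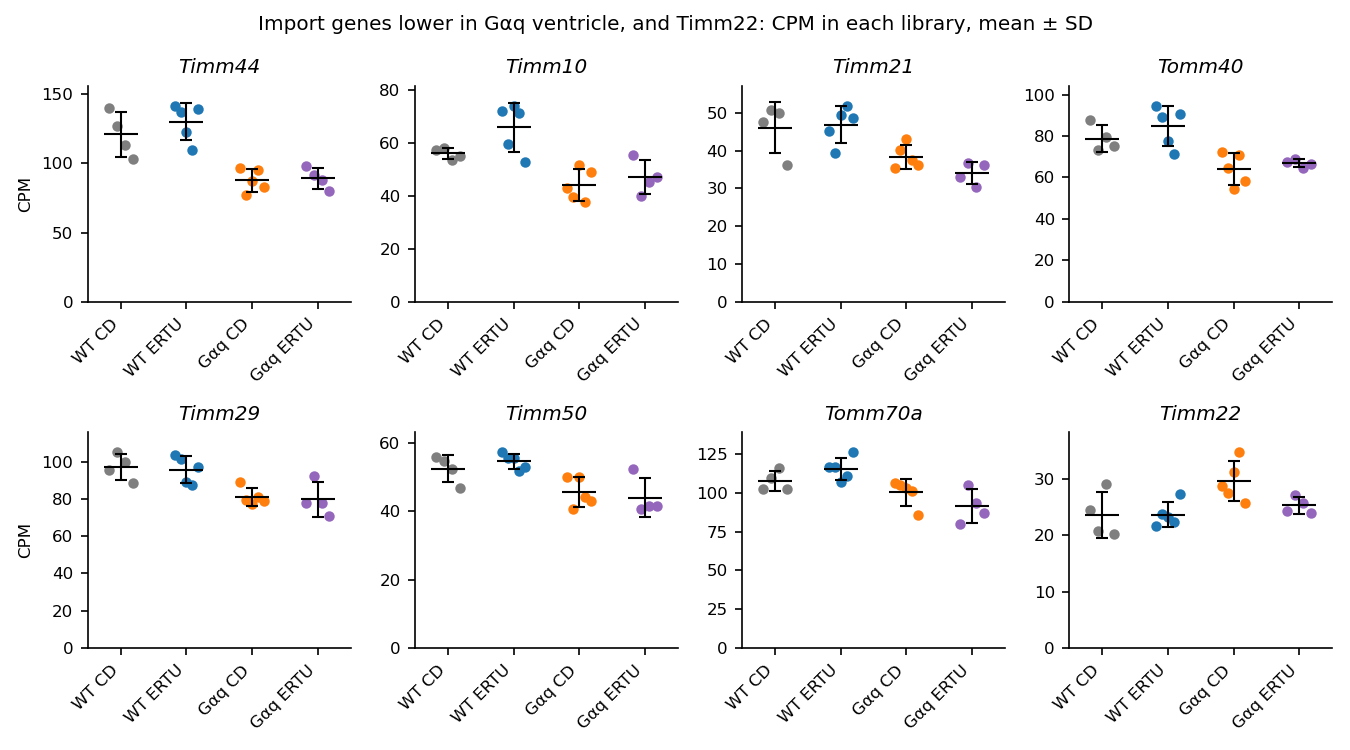
CPM of the 7 import genes lower in Gαq over both diets, and of Timm22, with 1 point per library, a horizontal bar for the group mean and error bars of 1 SD, on axes that start at 0. For Timm44 all 9 Gαq libraries, at 77.0 to 97.9 CPM, lie below all 9 WT libraries, at 103 to 142 CPM, while the other 6 lower genes overlap in part and Timm22 does not follow them.

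Of the 6 small chaperones of the intermembrane space, 5 had a log2 difference below 0 and 1 was called. Timm10 (ENSMUSG00000027076, chromosome 2, 84826997 to 84830213), which forms a ring with Timm9 around hydrophobic precursors, stood at 58.3, 57.4, 55.0 and 53.7 CPM in WT CD, at 74.2, 72.0, 71.6, 59.5 and 53.0 CPM in WT ERTU, at 51.9, 49.0, 42.9, 39.6 and 37.9 CPM in Gαq CD, and at 55.5, 47.3, 45.2 and 40.0 CPM in Gαq ERTU. All Gαq CD libraries were below all WT CD libraries, and on ERTU only Gαq ERTU 16 reached the WT range. Timm10 was 1.33-fold lower in Gαq (log2 difference -0.42, SE 0.083, edgeR adjusted p = 0.00104).

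The log2 difference was -0.07 (SE 0.079, adjusted p = 0.585) for its ring partner Timm9 and -0.19 (SE 0.069, adjusted p = 0.0558) for Timm13. Timm13 pairs with the Timm8 proteins, and these gave 0.12 (SE 0.107, adjusted p = 0.472) for Timm8b and -0.04 (SE 0.129, adjusted p = 0.858) for Timm8a1. Timm10b was not called (edgeR adjusted p = 0.256), with log2 differences of -0.21 to -0.14 in the fits without 1 library. Of the 6 small chaperones, 1 was thus called lower, and whether they differed from each other was not tested.

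In the TIM22 complex the channel and a subunit stood on opposite sides of 0. Timm29 (ENSMUSG00000048429, chromosome 9, 21592722 to 21595970), a subunit that also contacts the TOM complex, stood at 88.8 to 105 CPM in WT CD, at 87.2 to 104 CPM in WT ERTU, at 77.1 to 89.1 CPM in Gαq CD and at 70.6 to 92.5 CPM in Gαq ERTU, and was 1.20-fold lower in Gαq (log2 difference -0.26, SE 0.060, edgeR adjusted p = 0.00339). Timm22, the channel itself, stood at 29.1, 24.5, 20.9 and 20.3 CPM in WT CD, at 27.3, 23.9, 23.3, 22.3 and 21.8 CPM in WT ERTU, at 34.8, 31.3, 28.8, 27.6 and 25.7 CPM in Gαq CD and at 27.3, 25.7, 24.3 and 24.0 CPM in Gαq ERTU. Its log2 difference was 0.21 (SE 0.082) and missed the threshold (edgeR adjusted p = 0.0789). Timm22 was called higher without WT CD 4, without WT ERTU 15 and with scaling to library totals, with an adjusted p of 0.0393 at the lowest among the fits without 1 library.

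In the outer membrane, Tomm40 (ENSMUSG00000002984, chromosome 7, 19701313 to 19715438), the channel through which nearly all precursors pass, stood at 87.5, 79.4, 75.0 and 73.2 CPM in WT CD, at 94.7, 90.6, 89.1, 77.8 and 71.5 CPM in WT ERTU, at 72.1, 70.6, 64.5, 58.4 and 54.6 CPM in Gαq CD and at 68.8, 67.5, 66.6 and 64.5 CPM in Gαq ERTU. On each diet taken alone the genotypes did not overlap. Tomm40 was 1.25-fold lower in Gαq (log2 difference -0.32, SE 0.068, edgeR adjusted p = 0.00187). Tomm40l, a second channel gene expressed at a like level, had a log2 difference of -0.06 (SE 0.061, adjusted p = 0.543).

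Tomm70a (ENSMUSG00000022752, chromosome 16, 57121703 to 57156705), the receptor that takes carrier precursors from cytosolic chaperones, stood at 102 to 116 CPM in WT CD, at 107 to 126 CPM in WT ERTU, at 107, 105, 103, 102 and 85.6 CPM in Gαq CD and at 105, 93.2, 87.2 and 79.9 CPM in Gαq ERTU. It was 1.16-fold lower in Gαq (log2 difference -0.22, SE 0.068, edgeR adjusted p = 0.0254), and it was the least secure of the 7: without Gαq ERTU 16 or without Gαq ERTU 20 it was not called, with an adjusted p of at most 0.0598. The log2 difference was -0.01 (SE 0.084) for Tomm20, the receptor of presequences, and -0.11 (SE 0.064) for Tomm22, which organizes the complex. The small subunits gave -0.12 (SE 0.088) for Tomm5 and 0.10 (SE 0.103) for Tomm7, and Tomm34 gave 0.08 (SE 0.068). None of these 5 was called in this fit. Leaving out WT CD 5 raised the number of lower genes from 7 to 10, by Timm13, Timm23 and Tomm22.

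Other cell types also differed between the genotypes. Of the 7 fibroblast markers 6 were higher in Gαq, with a sum of 1432 to 2907 CPM in the WT libraries and of 2730 to 4049 CPM in the Gαq libraries. Of the 10 cardiomyocyte markers 4 were lower, with a median log2 difference of -0.09, and of the 6 endothelial markers 2 were lower. Of the 6 macrophage markers 1 was higher, and of the 5 smooth muscle and pericyte markers 2 were lower and 1 was higher. No marker of the atrial, fat, lymphocyte, red blood cell and skeletal muscle lists was called. Of the 5 genes in each of these lists, 4, 3, 2, 4 and 1 were tested. Their median log2 differences were 1.40, 0.97, 0.85, -0.20 and -0.77, so the lack of calls does not show that these tissues were alike. Over all tested genes 9.92% were lower and 9.72% higher. The part of other cell types in the lower import genes was not tested. Without the 4 libraries richest in atrial markers, 8 import genes were lower over both diets and 0 were higher.

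The next comparisons took each diet alone. On CD, 1 of the 22 genes, Timm44, was lower in Gαq (log2 difference -0.47, SE 0.104, edgeR adjusted p = 0.00748) and 0 were higher, against 4.10% of all tested genes lower and 4.00% higher. The counts at an unadjusted p under 0.05 were 7 of 22 members and 21.03% of all genes. Groups did not overlap for Timm44, Timm10 and Tomm40, that is for 3 of 22 genes, against 4.60% of all tested genes with every Gαq CD library below every WT CD library. Timm10 (log2 difference -0.34, SE 0.118, adjusted p = 0.0825), Tomm40 (-0.30, SE 0.099, adjusted p = 0.0705) and Timm29 (-0.26, SE 0.088, adjusted p = 0.0726) missed the threshold. The count of 1 rose to 3 without WT CD 5, by Timm21 and Timm29, to 2 without Gαq CD 6, by Tomm40, and to 2 without Gαq ERTU 17, by Timm29. Without WT CD 4 Timm22 was called higher, with an adjusted p of 0.0214. Without the 4 atrial-rich libraries the count was 2.

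On ERTU, 6 of the 22 genes were lower in Gαq and 0 were higher, against 4.24% of all tested genes lower and 3.93% higher. They were Timm44 (log2 difference -0.54, SE 0.106, edgeR adjusted p = 0.00248), Timm21 (-0.46, SE 0.108, adjusted p = 0.00976), Timm10 (-0.49, SE 0.119, adjusted p = 0.0120), Tomm70a (-0.34, SE 0.091, adjusted p = 0.0240), Tomm40 (-0.34, SE 0.100, adjusted p = 0.0375) and Timm50 (-0.31, SE 0.092, adjusted p = 0.0400). Every Gαq ERTU library was below every WT ERTU library for 6 genes, namely Timm44, Timm21, Tomm40, Tomm70a, Timm10b and Timm23, against 5.49% of all tested genes. Timm44, Timm21 and Timm10 were called whichever of the 18 libraries was left out. The other calls were lost when a single library was left out. Tomm70a was lost without WT ERTU 12 or 15 or without Gαq ERTU 16, 18 or 20 (adjusted p up to 0.0850), Tomm40 without WT ERTU 11, 12 or 15 or any Gαq ERTU library (up to 0.107), and Timm50 without WT ERTU 11, 12, 13 or 15 or Gαq ERTU 17, 18 or 20 (up to 0.125). The count was then between 3 and 7, with 3 without WT ERTU 12 or 15 or Gαq ERTU 18 or 20. Without the 4 atrial-rich libraries it was 4.

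**Figure D3:**
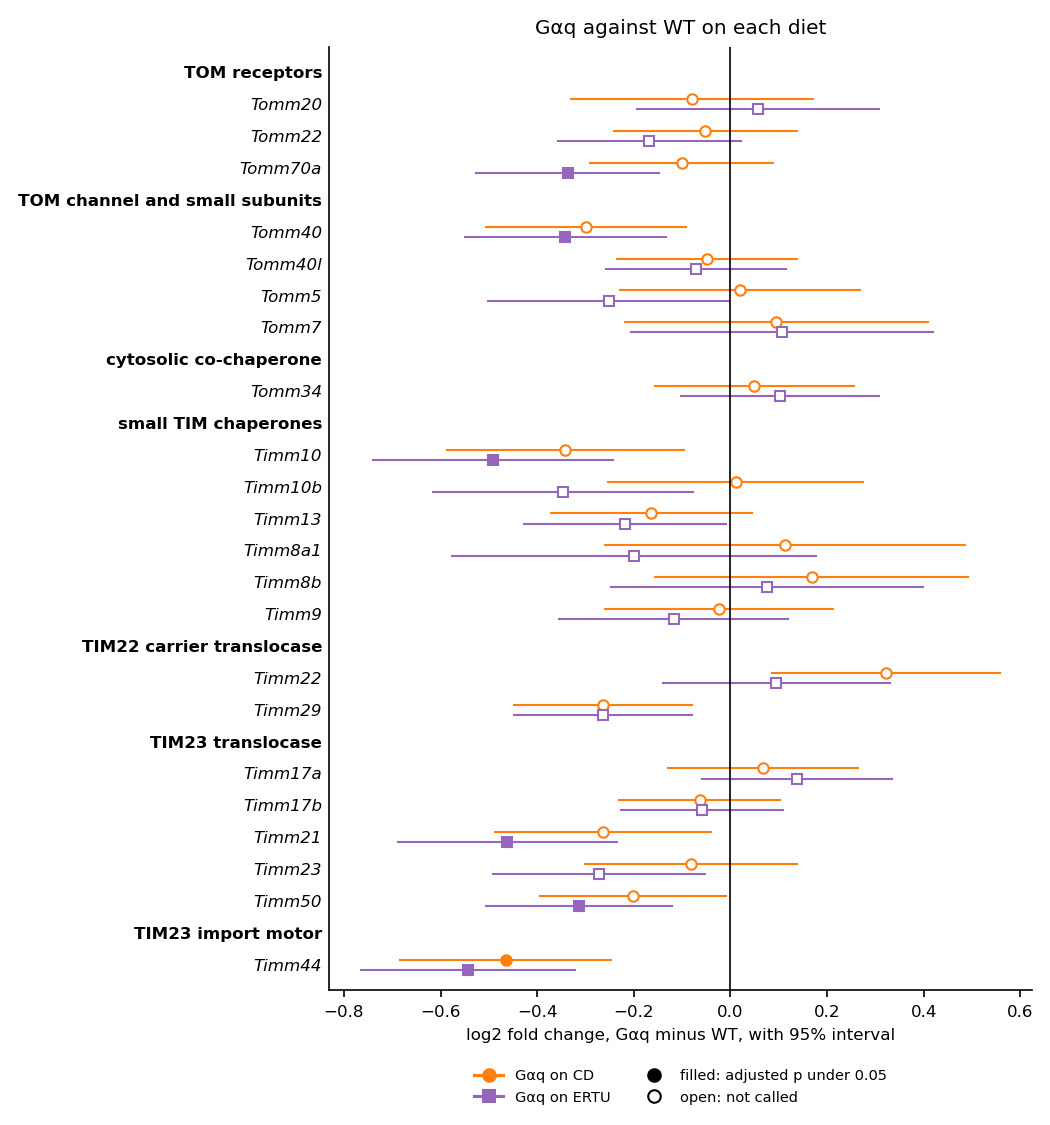
Log2 fold change of each import gene, Gαq minus WT, with its 95% interval, on CD (circles) and on ERTU (squares), ordered by role. Filled symbols have an adjusted p under 0.05, which holds for Timm44 on CD and for 6 genes on ERTU. The intervals of the 2 diets overlap for every gene.

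That 1 gene was called on CD and 6 on ERTU does not show that the effect of Gαq differed between the diets. The difference itself was tested as the interaction of genotype and diet, which called 0 of 22 import genes and 0 of 16270 genes in all (edgeR). At an unadjusted p under 0.05 it held 0 members and 313 genes in all, and the Wald test of DESeq2 called 0 members as well. Among the members the smallest unadjusted p was that of Timm10b, with a log2 interaction of -0.36 (SE 0.181, 95% interval -0.74 to 0.02, adjusted p = 1.00). For Timm44 the interaction was -0.08 (SE 0.148, 95% interval -0.39 to 0.23).

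The partners of these proteins outside the Timm and Tomm families were read as a further list of 31 genes. Over both diets 12 of them were lower in Gαq and 1 was higher, with a median log2 difference of -0.20, beside 9.92% of all tested genes lower and 9.72% higher. Of the 9 partners of the translocases and the import motor, 2 were lower, Hspa9 and Grpel1, and the other 7 were not called. Hspa9, the matrix Hsp70 itself, stood at 964 to 1158 CPM in WT CD, at 986 to 1342 CPM in WT ERTU, at 718 to 900.5 CPM in Gαq CD and at 729 to 886 CPM in Gαq ERTU, with no overlap between the genotypes, and was 1.39-fold lower in Gαq (log2 difference -0.48, SE 0.076, edgeR adjusted p = 1.05e-04). Grpel1, its nucleotide exchange factor, had a log2 difference of -0.34 (SE 0.067, adjusted p = 0.00112).

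Enzymes and chaperones that act on proteins once they have arrived were among the lower genes. The presequence protease subunits Pmpca and Pmpcb had log2 differences of -0.29 (SE 0.068, adjusted p = 0.00407) and -0.28 (SE 0.067, adjusted p = 0.00502), the intermediate peptidase Mipep -0.33 (SE 0.055, adjusted p = 1.69e-04) and the matrix chaperonin Hspd1 -0.36 (SE 0.075, adjusted p = 0.00174). Aifm1, which works with the oxidative folding pathway of the intermembrane space, had -0.45 (SE 0.069, adjusted p = 6.68e-05), and the insertase Oxa1l -0.27 (SE 0.068, adjusted p = 0.00749). The remaining lower genes were Mtx2, Trap1, Immp2l and Cox18, with log2 differences of -0.24, -0.22, -0.31 and -0.34. Mtch1, an outer membrane protein, was the gene that was higher (0.20, SE 0.056, adjusted p = 0.0165). Of the 6 outer membrane sorting genes 1 was lower and 1 higher, and of the 7 processing genes 4 were lower. On CD these groups held 0 and 1 lower genes and on ERTU 1 and 1, and the difference between the groups was not tested.

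On CD alone, where 4.10% of all tested genes were lower, 4 of the 31 were lower, Aifm1, Hspa9, Mipep and Grpel1, with log2 differences of -0.44, -0.44, -0.31 and -0.36. On ERTU, where 4.24% of all tested genes were lower, 5 of the 31 were lower, Hspa9, Aifm1, Hspd1, Mipep and Mtx2, with -0.52, -0.47, -0.47, -0.35 and -0.38. On neither diet was a gene of the list higher. In single fits without 1 library, the CD calls of Hspa9 (without WT CD 1 or 2, adjusted p up to 0.0646), Mipep (without WT CD 2 or Gαq CD 7 or 8, up to 0.0863) and Grpel1 (without WT CD 1, 2 or 4 or Gαq CD 7 or 9, up to 0.106) were lost.

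Large classes of imported proteins, the nuclear-encoded subunits of the respiratory chain and of the mitochondrial ribosome, give the scale. Over both diets 40 of 82 respiratory chain genes (48.8%) and 29 of 77 mitochondrial ribosome genes (37.7%) were lower in Gαq and 0 were higher, with median log2 differences of -0.25 and -0.19. The corresponding values were 31.8% and -0.11 for the import genes and 38.7% and -0.20 for their 31 partners. On CD the shares lower were 4.55% of the import genes, 12.9% of the partners, 14.3% of the ribosome genes and 18.3% of the respiratory chain genes. On ERTU the shares were 27.3% of the import genes, 16.1% of the partners, 27.3% of the ribosome genes and 23.2% of the respiratory chain genes. The import share there rests on 6 of 22 genes, and that count changed with the library left out. By median log2 difference on ERTU the 4 lists stood close together, at -0.21, -0.26, -0.22 and -0.25 in the same order. The shares thus do not show that the lists ranked differently on the 2 diets. These lists were chosen with earlier results known, and their differences from each other were not tested.

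**Figure D4:**
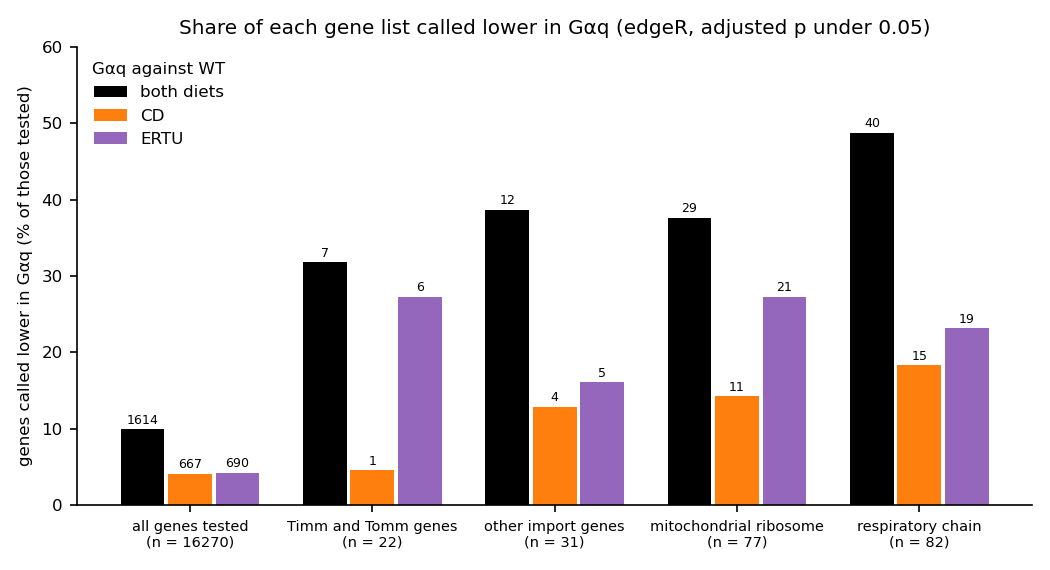
Percentage of tested genes called lower in Gαq in each list, over both diets, on CD and on ERTU, with the number of genes above each bar and the axis starting at 0. Over both diets the share was 31.8% for the import genes and 48.8% for the respiratory chain, against 9.92% for all genes tested, while on CD the import genes, at 4.55%, were close to the 4.10% of all genes.

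The last comparisons asked whether ERTU altered the import genes. With genotype in the model, 0 of 22 were called by diet and 0 of 16270 genes were called at all (edgeR). In WT hearts 0 of 22 and 0 of 16270 were called. In Gαq hearts 0 of 22 were called, and 1 gene of 16270 (0.00615%) passed, Themis2, an immune signalling gene that is no import gene, where the Wald test of DESeq2 called 5 genes. At an unadjusted p under 0.05 there were 2 members by diet, Timm23 and Timm10b, 1 in WT, Timm23, and 1 in Gαq, Timm10b, beside 1252, 365 and 1240 of all genes tested. The Wald test of DESeq2 and limma voom also called 0 members in each of the 3 comparisons. The median log2 change of the members was -0.0024 by diet, 0.03 in WT and -0.02 in Gαq. Without WT CD 5 the WT median was -0.008. By diet 11 of 22 members were above 0, with 17 in WT and 10 in Gαq. Also by diet, 21 of 31 partners, 60 of 77 ribosome genes and 78 of 82 respiratory chain genes were above 0. Their median log2 changes were 0.03, 0.04 and 0.08, and 0 genes of these lists were called. The differences between the lists were not tested.

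Timm23, the TIM23 channel, stood at 20.6, 19.0, 17.9 and 15.6 CPM in WT CD and at 23.4, 23.4, 23.1, 22.2 and 19.1 CPM in WT ERTU, against 14.6 to 20.5 CPM in Gαq CD and 17.9 to 18.7 CPM in Gαq ERTU. These counts are uncertain because of copies of Timm23 in the genome, described below. In WT, 4 of the 5 ERTU libraries were above all CD libraries. The log2 change was 0.28 (SE 0.105, 95% interval 0.07 to 0.50, adjusted p = 1.00). Timm10b stood at 6.91, 5.90, 5.54, 5.53 and 5.06 CPM in Gαq CD and at 4.75, 4.58, 4.21 and 4.18 CPM in Gαq ERTU, without overlap, and at 4.83 to 6.30 CPM in WT. Its log2 change in Gαq was -0.39 (SE 0.128, 95% interval -0.66 to -0.12, adjusted p = 0.653).

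For the 7 genes lower in Gαq over both diets, no change toward WT was detectable with ERTU. Of these, only Timm44 was called lower on CD. On that diet the edgeR adjusted p was 0.0825 for Timm10, 0.0705 for Tomm40 and 0.0726 for Timm29. It was 0.15 for Timm21, 0.21 for Timm50 and 0.59 for Tomm70a. For these genes a deficit on CD alone was thus neither shown nor excluded. Without WT CD 5, Timm21 was called lower on CD (edgeR adjusted p = 0.0273). In Gαq hearts the log2 change with ERTU was 0.03 (95% interval -0.19 to 0.25) for Timm44, 0.09 (-0.16 to 0.33) for Timm10, 0.06 (-0.14 to 0.27) for Tomm40 and -0.03 (-0.21 to 0.16) for Timm29. It was -0.17 (-0.40 to 0.05) for Timm21, -0.05 (-0.25 to 0.14) for Timm50 and -0.13 (-0.32 to 0.06) for Tomm70a. The upper ends of these intervals stand beside genotype differences on CD of -0.47 (95% interval -0.68 to -0.25) for Timm44, -0.34 (-0.59 to -0.10) for Timm10 and -0.30 (-0.51 to -0.09) for Tomm40. For Timm10 and Tomm40 they come close to the whole difference, so that a return near the WT level cannot be told from none at this precision. Summed over the 22 genes the level was 1152 to 1403 CPM in WT CD, 1340 to 1420 CPM in WT ERTU, 1172 to 1285 CPM in Gαq CD and 1184 to 1304 CPM in Gαq ERTU.

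**Figure D5:**
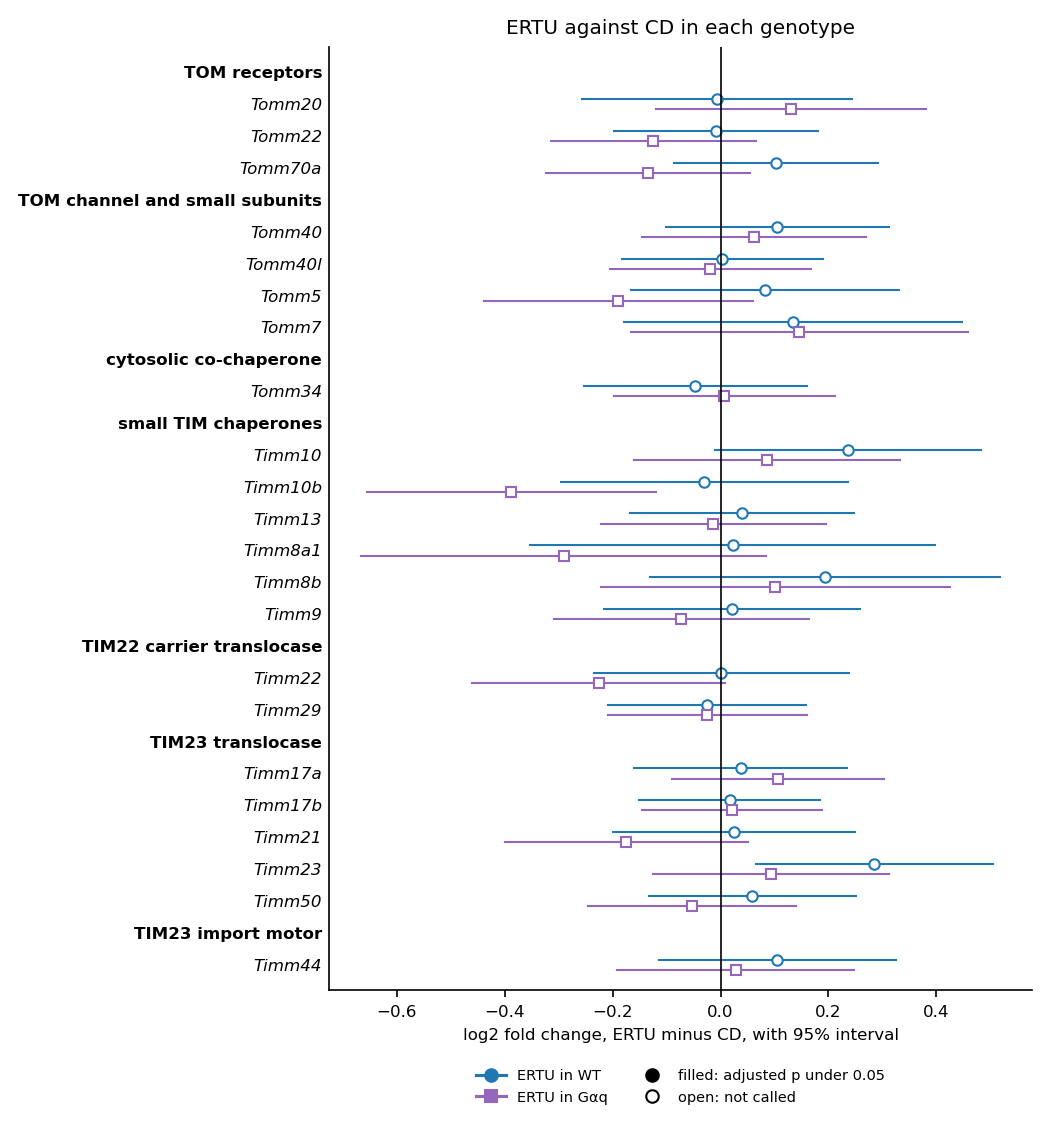
Log2 fold change of each import gene, ERTU minus CD, with its 95% interval, in WT (circles) and in Gαq (squares), ordered by role. Every symbol is open because 0 of 22 genes were called. The intervals of Timm23 in WT, at 0.28, and of Timm10b in Gαq, at -0.39, leave out 0 before adjustment.

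Several import genes have a related gene among the members, and the ratio of CPM within such pairs was compared between groups by 2-sided exact permutation tests. A pair need not be alternative forms of the same subunit, as with Timm10 and Timm10b. With 4 libraries against 5 there are 126 splits, and the smallest p they allow is 0.0159. There were 16 tests, of 4 pairs in 4 comparisons, chosen after the values were seen. None had an adjusted p under 0.05, but a single ratio at the smallest possible p could not have passed after adjustment over 16 tests. The lack of calls therefore does not show that the ratios were alike. The ratio of Timm17a to Timm17b on ERTU was 6.34 ± 0.270 (SD, n = 5) in WT and 7.29 ± 0.355 (SD, n = 4) in Gαq, without overlap (exact p = 0.0159, adjusted p = 0.190). The ratio of Tomm40 to Tomm40l on CD was 0.987 ± 0.103 (SD, n = 4) in WT and 0.825 ± 0.0853 (SD, n = 5) in Gαq (exact p = 0.0476, adjusted p = 0.190). The ratio of Timm10 to Timm10b in Gαq was 7.70 ± 1.19 (SD, n = 5) on CD and 10.6 ± 1.07 (SD, n = 4) on ERTU (exact p = 0.0317, adjusted p = 0.190). In WT on CD this ratio was 9.79 ± 0.785 (SD, n = 4), above that of Gαq on CD (exact p = 0.0476, adjusted p = 0.190).

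The promoters of the lower genes were read for sequence motifs known from mitochondrial genes. RefSeq promoters on GRCm38.p6, the 250 bases before the annotated start, were found for 19 of the 22 genes and for 6 of the 7 lower ones. The motifs, searched on both strands, were CCGGAAG for the ETS family, which includes GABP, TCAAGGTCA for the ERR receptors, AAGATGGCG for YY1, and the consensus of NRF1, given by name. CCGGAAG lay in 7 of 19 promoters of the import genes, namely those of Timm10, Timm23, Timm29, Timm8b, Tomm22, Tomm34 and Tomm70a, and in 3 of the 6 of lower genes, against 14.6% of the 11243 promoters of tested genes and 7.83% of all 27025. The NRF1 motif lay in 1 of 19, that of Tomm20 (8.54% of tested genes), the ERR letters in 1 of 19, that of Timm8b (0.302%), and the YY1 letters in 0 of 19 (1.28%). Of the lower genes, Timm10 and Tomm70a are shown because CCGGAAG or its reverse complement lies close to their start, and Timm44 because it differed most and held none of the 4 motifs. Capitals mark the motif.
Timm44, chr8:4275906-4276155, minus strand: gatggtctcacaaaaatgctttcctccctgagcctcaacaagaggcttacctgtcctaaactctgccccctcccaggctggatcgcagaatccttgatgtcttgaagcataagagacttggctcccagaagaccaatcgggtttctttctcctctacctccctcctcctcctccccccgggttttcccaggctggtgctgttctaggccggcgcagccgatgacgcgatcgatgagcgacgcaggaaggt
Timm10, chr2:84826771-84827020, plus strand: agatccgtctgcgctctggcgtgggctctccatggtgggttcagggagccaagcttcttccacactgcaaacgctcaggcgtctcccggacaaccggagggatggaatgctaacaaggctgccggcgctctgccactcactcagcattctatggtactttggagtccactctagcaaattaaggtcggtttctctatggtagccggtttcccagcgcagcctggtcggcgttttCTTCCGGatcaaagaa
Tomm70a, chr16:57121464-57121713, plus strand: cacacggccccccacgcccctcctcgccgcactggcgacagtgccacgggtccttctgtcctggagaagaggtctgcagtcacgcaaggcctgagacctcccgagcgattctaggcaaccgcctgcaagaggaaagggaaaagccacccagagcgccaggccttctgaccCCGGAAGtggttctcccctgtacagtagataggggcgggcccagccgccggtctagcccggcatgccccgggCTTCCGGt
In Timm10 the motif begins 16 bases before the start, and in Tomm70a it occurs 80 and 8 bases before it. A match of letters is a description of the sequence and was not tied to any difference between the groups.

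Some members share sequence with copies elsewhere in the genome, so that their counts of uniquely placed read pairs are uncertain. Timm23 has the most complete copy: Gm10273 matches 99.9% over 95.6% of its transcript and itself had a mean of 0.167 read pairs. It is 1 of 6 copies of Timm23. Another, Gm10171, matches 100% over 628 bases and had a mean of 39.7 read pairs, against 347 for Timm23. Tomm20 has 10 pseudogenes with at least 90% identity over at least 200 bases, of which Gm14494 had a mean of 539 read pairs against 644 for Tomm20. Timm8a1 shares 612 bases without a mismatch with Gm9797, which had a mean of 60.1 read pairs, and Timm17a shares 516 bases with Gm7180. Timm10b shares 365 bases at 99.7% with Gm45799, which had a mean of 1.11 read pairs. The same gene overlaps 10.5% of the exons of Timm10b on the same strand. Of the 7 genes lower in Gαq, Timm21 shares 567 bases at 94.2% with a pseudogene that had a mean of 6.33 read pairs, and the other 6 have no such copy. Exons of Tomm40l overlap Nr1i3 on the opposite strand over 64.3% of their length. Tomm6 overlaps the readthrough gene Gm21981 over 75.9% of its exons on the same strand, and its low count is therefore no measure of its level.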

How the data were processed

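Left ventricular RNA of 18 mice was analysed. Per the study's methods and processing notes, the authors aligned reads of poly(A)-selected paired-end libraries to build mm10 with STAR 2.6.0c, and the deposited table holds raw counts of uniquely aligned read pairs per Ensembl gene on the gene's strand, made with featureCounts (Subread 1.6.2) for nuclear-encoded genes. Another deposited file carries log2-scale values, obtained by the authors through the variance-stabilizing transformation of DESeq2. It served only as an alternative. GENCODE M21 (GRCm38) gave symbols and positions for 55104 gene IDs (99.4%).

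Counts were tested in R 4.3.3 with edgeR 4.0.16: filterByExpr on the 4 groups, which kept 16270 genes and left out 0.0906% of the counts, TMM scaling, and quasi-likelihood F tests. Genotype and diet came from a model with both factors, and the other comparisons from a model with a mean per group. Benjamini-Hochberg adjustment covered the 16270 genes, with a threshold of 0.05. Log2 values are from these fits, with 95% intervals. Total counts of 15383566 to 20908363 put the members at means of 98.6 to 3320 read pairs. SDs give the spread between libraries, counting error included, and SEs of log2 values are from the edgeR fits. Copies were sought with BLAST+ 2.17.0 at 90% identity or more over at least 200 bases. The procedure was also run on simulated counts for some of the comparisons, and no result given here rests on that run.

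The members, the lists of other import, respiratory chain, ribosome and marker genes, and the tests were chosen with earlier results of these data known. Named are all members, Gnaq, up to 8 other import genes with the smallest adjusted p by genotype, and single genes behind small counts, the last chosen after their values were seen. Alternatives were median-of-ratios scaling, no filter, DESeq2 1.42.0, limma 3.58.1 voom with quality weights, limma on the deposited transformed values, fits of only the groups compared and fits without each library. Scaling to library totals, leaving out 4 libraries and the ratios of gene pairs were added after the data were seen. Nothing states that libraries of a group were prepared apart, and no sequencing batch was given in the sources used here.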

Additional observations from a re-analysis of the deposited data

Results flagged for a closer look

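In groups of 4 or 5 libraries, a library was marked when its gap to the nearest other library, as a share of the whole range of the group, exceeded the 95% limit of Dixon's test. Of 144 groups of values tested, 10 held such a library, where chance gives about 7.2. Among the import genes, Timm23 in WT ERTU was low in library 15 (19.1 CPM against 22.2 to 23.4, share 0.732). Timm50 in Gαq ERTU was high in library 16 (52.3 CPM against 40.6 to 41.6, share 0.915). Tomm22 was low in WT ERTU library 11 (51.8 CPM against 57.5 to 59.5, share 0.739) and high in Gαq ERTU library 16 (52.2 CPM against 50.2 to 50.5, share 0.859), and Tomm70a was low in Gαq CD library 10 (85.6 CPM against 101.5 to 107, share 0.753).

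Among their partners, Mipep was low in Gαq ERTU library 20 (75.0 CPM against 80.5 to 81.4, share 0.866), Grpel1 was low in WT CD library 5 (129 CPM against 164 to 171, share 0.836) and Pmpca was high in WT CD library 2 (217 CPM against 193 to 195, share 0.930). The ratio of Timm8b to Timm8a1 was low in Gαq ERTU library 17 (13.2 against 19.5 to 20.8, share 0.838). The total count was low in WT ERTU library 15 (16075634 read pairs against 18036131 to 18834963, share 0.711). Without Gαq ERTU 16 the log2 difference of Timm50 on ERTU ranged as far as -0.41, the lowest of the 18 fits.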

How the results depend on the processing

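No paired analysis was possible by replicate number, because the table's columns could not be matched to the replicate numbers of the sample labels. Those labels number replicates within each group, whereas the columns are numbered through all groups. Nothing in the sources used here states that mice of different groups were paired. Over both diets, the count of import genes lower in Gαq stayed between 6 and 10 under all alternatives. The count of genes higher over both diets went from 0 to 1 (Timm22) with library totals, and ranged from 0 to 1 without 1 library (1 without WT CD 4 or WT ERTU 15). On CD the count lower went from 1 to 3 with the DESeq2 Wald test, to 3 with voom and to 2 without the 4 atrial-rich libraries, and ranged from 1 to 3 without 1 library (3 without WT CD 5, 2 without Gαq CD 6 or Gαq ERTU 17), and the count higher ranged from 0 to 1 (1 without WT CD 4). On ERTU the count lower went from 6 to 3 with no filter, to 10 with voom and to 3 with only the groups compared, and ranged from 3 to 7 without 1 library (3 without WT ERTU 12, WT ERTU 15, Gαq ERTU 18 or Gαq ERTU 20). The cause was not tested. The counts by diet, in either genotype and for the interaction were 0 under every alternative run. Of single-gene results, none that was called changed sign. Calls of 6 results were lost in 17 values of the alternatives that kept every library or left out 4, and calls of 7 results in 31 values of the fits without 1 library. With library totals the median of all genes moved to 0.06 by genotype, from 0.0038, and calls over all genes were 1244 lower and 1988 higher, against 1614 and 1582 with TMM. On ERTU, voom called 1393 genes lower and 1362 higher, against 690 and 640. Groups of 4 or 5 limit the precision: the standard errors of single members were 0.055 to 0.129 over both diets and 0.08 to 0.18 on 1 diet.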
